A study of Mus musculus with 2 samples.

Results

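The genes described here are 10 regulators of the embryonic stem cell state, namely Pou5f1, Nanog, Zfp42, Tfcp2l1, Utf1, Lin28a and the 4 Spalt-like genes Sall1, Sall2, Sall3 and Sall4. They were chosen by name, out of 21631 protein-coding genes, and each was searched for Suz12 peaks overlapping it or lying within 10 kb of it. All values come from 1 chromatin immunoprecipitation library of Suz12 from wild-type E14 cells, a mouse embryonic stem cell line. The cells, grown in serum, had been differentiated for 72 h by adding all-trans-retinoic acid (1 µM) and withdrawing leukemia inhibitory factor, which keeps them undifferentiated. The library of Suz12-/- cells at 0 h was not analysed here, so no group is compared with another, there is no replicate error and no p-value is given. RNA was not analysed here either, so the state of the cells could not be checked against markers and a peak says nothing of whether its gene was transcribed.

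Suz12 belongs to the core of PRC2 (Polycomb Repressive Complex 2), an enzyme complex that methylates histone H3 at lysine 27 and is found mostly at CpG-rich promoters of genes that are silent or lowly expressed. Pou5f1 (Oct4) and Nanog are transcription factors at the centre of the pluripotency network. Zfp42 (Rex1) and Tfcp2l1 are factors of its naive state, and Utf1 is a chromatin-bound protein of undifferentiated cells. Lin28a is an RNA-binding protein that blocks maturation of the let-7 microRNAs. The Sall genes encode zinc-finger factors that recruit the NuRD histone deacetylase complex. Sall4 and Sall1 act in embryonic stem cells, and Sall1 and Sall3 also act in later organ and nervous system development.

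Suz12 peaks overlapped 3 of the 10 genes, Utf1, Sall1 and Sall3, and the other 7 had none within 10 kb. Each of the 3 genes had a single peak, and each of these peaks covered an end of its gene. No peak lay in the interior of any of the 10 genes, more than 2.5 kb from both ends. Among all protein-coding genes 15.9% had a peak overlapping or within 10 kb, 11.7% had one within 2.5 kb of an end, and 1.35% had an interior peak with none at an end. The share of 30.0% for the 10 genes has an exact 95% binomial interval of 6.67% to 65.2%, which covers counting error only. It includes both 15.9% and 11.7%, so the count does not set the list apart from other genes.

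The promoters of the genes the results turn on are printed first, because they differ in CpG dinucleotides, the feature named in the title of the series. Each line gives the 250 bases before the first listed start of the gene, from RefSeq on GRCm38.p6. It is written 5′ to 3′ on the strand of the gene with every CpG in capitals. Utf1 and Sall1 had a peak over the start, and the others had none. Utf1 is at chr7:139943606-139943855 (plus strand), Sall1 at chr8:89044163-89044412 (minus strand), Tfcp2l1 at chr1:118627695-118627944 (plus strand) and Pou5f1 at chr17:35505782-35506031 (plus strand). Zfp42 is at chr8:43307010-43307259 (minus strand), Nanog at chr6:122707239-122707488 (plus strand) and Sall2 at chr14:52328671-52328920 (minus strand).
Utf1: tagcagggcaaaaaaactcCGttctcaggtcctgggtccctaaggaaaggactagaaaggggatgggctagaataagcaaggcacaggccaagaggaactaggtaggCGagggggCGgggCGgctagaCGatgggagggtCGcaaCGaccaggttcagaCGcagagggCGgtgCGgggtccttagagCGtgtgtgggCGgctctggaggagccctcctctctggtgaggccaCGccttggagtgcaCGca
Sall1: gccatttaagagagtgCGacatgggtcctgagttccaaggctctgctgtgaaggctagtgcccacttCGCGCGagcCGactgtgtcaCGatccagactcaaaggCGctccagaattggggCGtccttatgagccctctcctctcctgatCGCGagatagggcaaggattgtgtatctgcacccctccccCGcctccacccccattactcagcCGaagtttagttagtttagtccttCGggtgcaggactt
Tfcp2l1: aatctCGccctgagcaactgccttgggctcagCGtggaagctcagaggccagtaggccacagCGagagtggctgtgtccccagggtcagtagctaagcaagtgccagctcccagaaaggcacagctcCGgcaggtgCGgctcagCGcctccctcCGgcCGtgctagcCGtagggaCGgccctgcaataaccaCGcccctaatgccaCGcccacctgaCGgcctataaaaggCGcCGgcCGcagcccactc
Pou5f1: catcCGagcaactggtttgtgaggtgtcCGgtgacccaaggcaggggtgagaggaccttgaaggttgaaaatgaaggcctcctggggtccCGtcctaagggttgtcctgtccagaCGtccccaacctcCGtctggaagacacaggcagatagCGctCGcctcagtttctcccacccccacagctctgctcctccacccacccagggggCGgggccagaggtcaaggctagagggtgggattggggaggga
Zfp42: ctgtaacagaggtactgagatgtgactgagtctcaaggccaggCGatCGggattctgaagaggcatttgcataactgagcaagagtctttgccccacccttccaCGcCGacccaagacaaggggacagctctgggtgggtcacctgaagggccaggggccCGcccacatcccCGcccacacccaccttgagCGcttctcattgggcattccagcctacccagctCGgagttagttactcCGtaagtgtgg
Nanog: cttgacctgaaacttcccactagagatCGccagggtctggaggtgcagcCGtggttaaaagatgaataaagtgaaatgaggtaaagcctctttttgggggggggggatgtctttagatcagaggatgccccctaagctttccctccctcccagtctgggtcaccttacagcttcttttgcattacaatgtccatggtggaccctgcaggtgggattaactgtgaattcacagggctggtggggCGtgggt
Sall2: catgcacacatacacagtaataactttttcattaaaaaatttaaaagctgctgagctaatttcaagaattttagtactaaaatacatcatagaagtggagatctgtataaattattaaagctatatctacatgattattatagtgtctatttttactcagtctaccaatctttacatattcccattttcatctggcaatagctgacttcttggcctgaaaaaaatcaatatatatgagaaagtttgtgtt
These stretches hold 14 CpGs at Utf1, 13 at Sall1, 16 at Tfcp2l1, 8 at Pou5f1, 9 at Zfp42, 3 at Nanog and 0 at Sall2. The stretch at Tfcp2l1, which had no peak, is thus as rich in CpGs as the pair that had one. Other listed starts of these genes, none covered by a peak, are not printed. The 250 bases before them hold 25 and 30 CpGs at Sall1, 6 at Pou5f1, 2 at Nanog and 6 at Sall2.

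Utf1 had the highest-scoring peak of the list. It ran over chr7:139943386-139946174 (GRCm38), a width of 2789 bp, with a deposited score of 3155. The score is the authors' own value and its scale is not stated, so it is used only to order peaks within this list of 3373. Only 22 peaks scored higher, but 325 peaks share the value 3100, so a place above it need not mean a stronger peak. The gene is short, 1257 bp from 139943856 to 139945112, and lay wholly inside the peak, which reached 470 bp before it and 1062 bp past it. Of all protein-coding genes, 114 (0.527%) lay wholly inside 1 peak. Of the 355 peaks scoring 3100 or more, only 9 were narrower than the Utf1 peak, and the median width of the 355 was 5349 bp. Most of these are the 325 tied at 3100, so they are not peaks of like score. Its nearest other coding gene was Kndc1, which ended 1846 bp before the peak began.

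Sall3 had the widest peak of the list, 6513 bp at chr18:80983552-80990064, with a score of 3100. It ranked at place 130 of 3373 by width. It overlapped 3470 bp, or 17.3%, of the 20033 bp gene and ran 3043 bp beyond the higher-numbered end. The long non-coding RNA gene Gm27239, of 1117 bp, lay entirely inside the peak. Of the 2510 peaks at an end of a coding gene, 36 (1.43%) held a whole long non-coding RNA gene.

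The peak of Sall1 was smaller. It lay at chr8:89043806-89045926, was 2121 bp wide and scored 640, at place 1554 of 3373 by score and place 1358 by width. Among 473 peaks within 10% of its width the scores ran from 183 to 2550 with a median of 743, so its score was ordinary for its width. It overlapped 357 bp, or 2.11%, of the 16921 bp gene and ran 1764 bp beyond the end at which transcription starts. RefSeq lists 3 starts for Sall1. The peak covered the outermost, at 89044162, and stopped 294 bp short of the second, at 89043512, and 944 bp short of the innermost, at 89042862. The whole peak also lay within Gm3134, a long non-coding RNA gene on the other strand that overlaps the start of Sall1, and 18.8% of end peaks overlapped a long non-coding RNA gene on either strand and to any extent. A second peak, of 1304 bp and score 365, lay 20.2 kb beyond the far end of Sall1 and outside any annotated gene, at chr8:89005730-89007033.

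**Figure D1:**
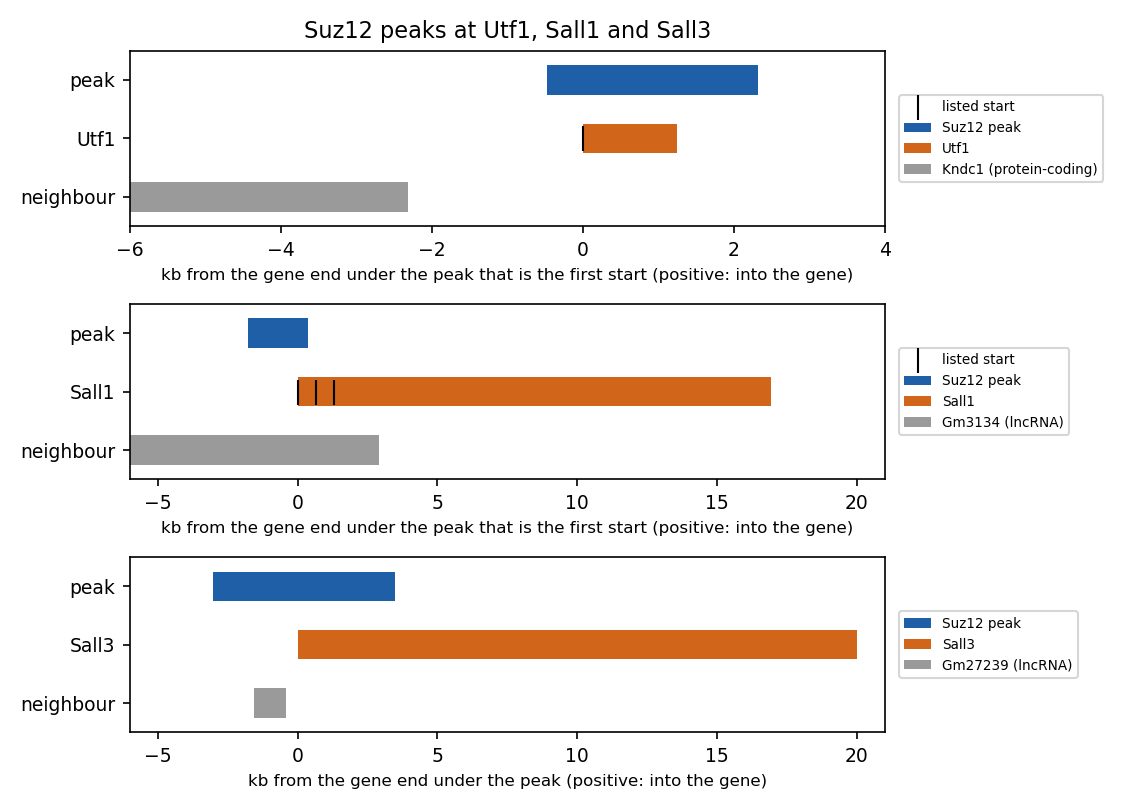
Position of the Suz12 peak (blue), the gene (orange) and the gene next to it (grey) at Utf1, Sall1 and Sall3, in kb from the gene end that the peak covers, with positive values running into the gene and black ticks for the starts RefSeq lists. The peak holds all of Utf1 (1257 bp), only the first of 3 starts of Sall1, and 3470 bp of Sall3.

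Sall1 and Sall3 carried a peak over an end, while Sall2 and Sall4 had none within 10 kb. The nearest peak to Sall4 lay 144 kb away and overlapped Zfp64, a zinc-finger gene. The nearest to Sall2 lay 397 kb away at Ndrg2, with 13 other coding genes lying between. Peaks at Sall1 and Sall3 differed 3.07-fold in width, and no replicate is there to give that ratio an error.

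Pou5f1 and Nanog had no peak within 10 kb. Sox2, which is on the list of other naive regulators below, had 5 within 10 kb, 3 of them at an end. The best end peak of Sox2 scored 993. At Pou5f1, on chromosome 17 from 35506032 to 35510777, the nearest peak was 34.8 kb upstream, at chr17:35469049-35471195 (2147 bp, score 1402). It overlapped H2-Q10, a class I histocompatibility gene, and further peaks within 100 kb overlapped its relatives H2-Q7 (score 604) and H2-Q6 (score 161). These H2-Q genes are close copies of each other, and how reads that match several places were treated is not given in the sources used here. On the other side of Pou5f1 the next peak was 572303 bp away.

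At Nanog, on chromosome 6 from 122707489 to 122714633, the nearest peak was 43.8 kb upstream. It lay outside any annotated gene at chr6:122662594-122663736, was 1143 bp wide and had a score of 162, at place 3265 of 3373. On the other side, 86.6 kb away, a peak of score 533 overlapped Slc2a3, a glucose transporter gene. Nanog and Pou5f1 were therefore closer to a peak than most genes without one: 12.2% and 9.38%, respectively, of the 18194 coding genes with no peak within 10 kb had a nearer peak.

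The other factors were farther from any peak. Lin28a, on chromosome 4 from 134003330 to 134019196, was 230 kb from a peak of 4866 bp and score 2754 that overlapped Grrp1 and Gm30191, with 9 coding genes in between. Tfcp2l1, on chromosome 1 from 118627923 to 118685168, was 732 kb from a peak of score 190 at Inhbb, which encodes a subunit of activin and inhibin. Zfp42, on chromosome 8 from 43295067 to 43307009, was the most remote, 2984 kb from a peak of 6391 bp and score 2344 over Helt, a neuronal repressor gene, with 22 coding genes in between. Only 429 of the 18194 coding genes without a peak within 10 kb were as far from one as Zfp42. The median for those genes was 256 kb (quartiles 93.3 and 652 kb), and that of the 7 genes here was 230 kb.

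**Figure D2:**
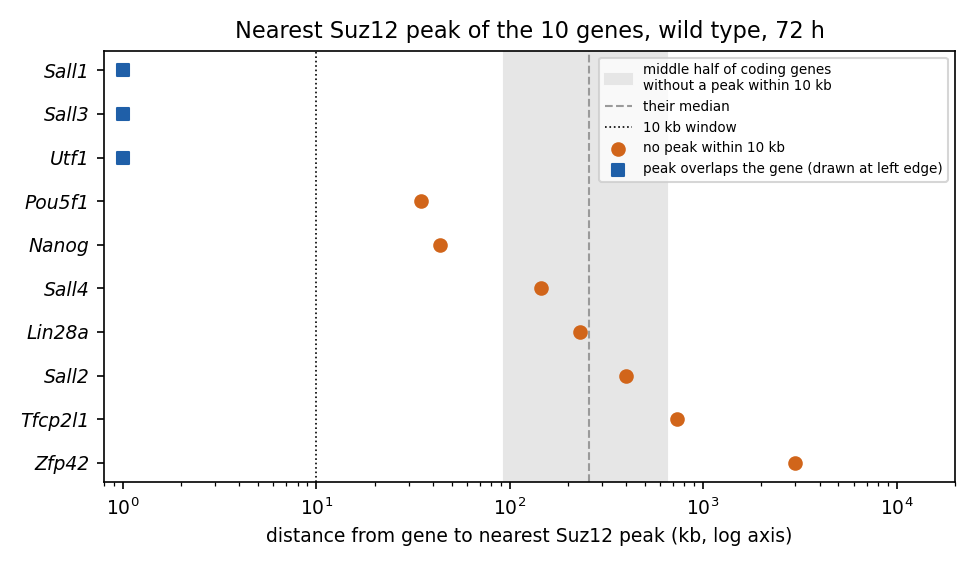
Distance in kb, on a log axis, from each of the 10 genes to its nearest Suz12 peak, with the 3 overlapped genes drawn as squares at the left edge, and grey shading from the lower to the upper quartile for all coding genes without a peak within 10 kb. None of the 10 lies between the overlapped ones and Pou5f1 at 34.8 kb, and Zfp42 stands at 2984 kb.

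**Figure D3:**
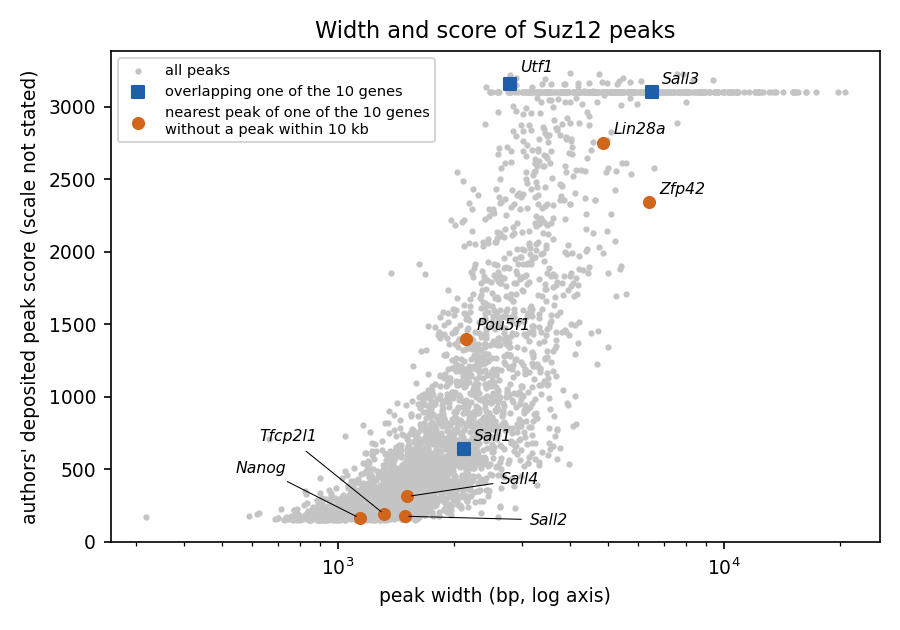
Width in bp (log axis) and the authors' score of all 3373 Suz12 peaks in grey, with the peaks over Utf1, Sall1 and Sall3 as blue squares and the nearest peak of each other gene as an orange circle. The Utf1 peak (2789 bp) lies at the narrow edge of the top scores, and the peaks nearest Nanog, Tfcp2l1, Sall2 and Sall4 all score 313 or less.

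Most starts without a peak held fewer CpGs than those of Utf1 and Sall1, with exceptions at Tfcp2l1 and at the inner starts of Sall1. Composition was read from the RefSeq promoter windows, 300 bases from 250 before to 50 after each start, which gave 13 starts for 8 of the 10 genes. Sall3, which had a peak, and Sall4, which had none within 10 kb, have no window there. Neither enters the CpG and motif descriptions. Observed over expected CpG compares the CpGs counted with the number that the C and G content would give by chance. It was 0.62 at Utf1 and 0.73 at the covered start of Sall1. At the uncovered second and innermost starts of Sall1 it was 0.73 and 0.82, and these starts lie 294 and 944 bp from the peak.

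Without a peak, Tfcp2l1 had a ratio of 0.66, and the remaining starts were lower. Zfp42 had 0.44, Pou5f1 0.37 and 0.39 at its 2 starts, and Lin28a 0.35. Sall2 had 0.15 at its outer start and 0.36 at the inner one, and Nanog 0.19 and 0.18. The ratio at Nanog exceeded 20.6% and 19.4% of all promoter windows, while that at Utf1 exceeded 53.1% and that at Tfcp2l1 56.5%, both near the middle of all windows.

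Over all 21045 windows of coding genes, 1687 starts (8.02%) were covered by a Suz12 peak. The median ratio was 0.73 for covered and 0.54 for uncovered starts. Starts with a ratio under 0.2, the range of Nanog and the outer Sall2 start, were covered in 0.575% of cases. Those from 0.2 to 0.4, the range of Pou5f1, Lin28a and the inner Sall2 start, were covered in 3.67%. Starts from 0.4 to 0.6, where Zfp42 falls, were covered in 11.6%. The range from 0.6 to 0.8 had the highest share, 14.3%. It holds the covered starts of Utf1 and Sall1 and the uncovered start of Tfcp2l1 and second start of Sall1. The share was 11.3% from 0.8 to 1.0, where the uncovered innermost start of Sall1 falls, and 7.7% at 1.0 or more. Most starts as CpG-rich as that of Tfcp2l1 therefore had no peak over them. Windows of 1 gene overlap or share a locus, so these shares are descriptions and not tests.

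**Figure D4:**
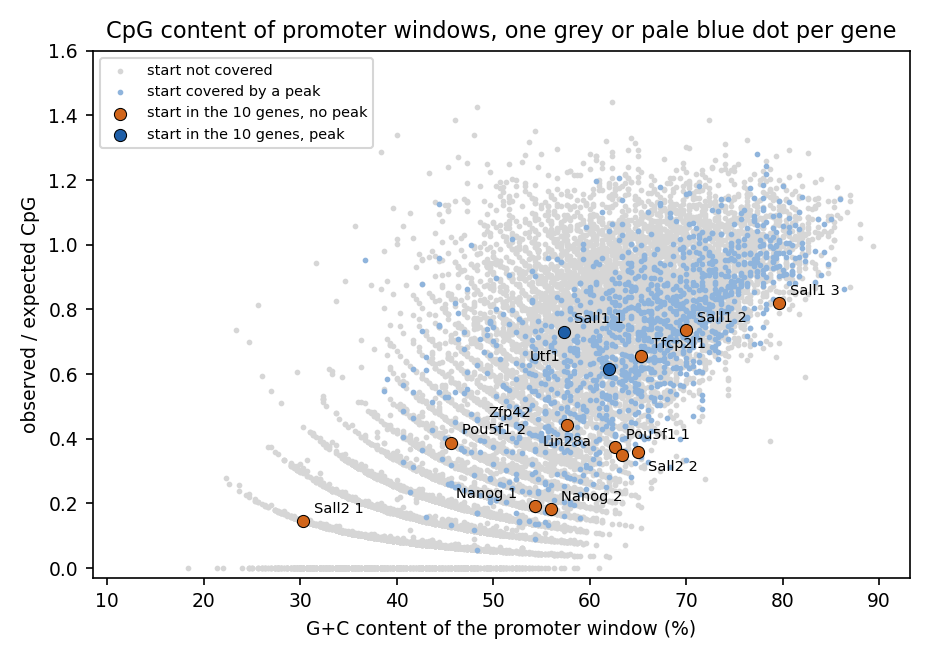
G+C content (%) and observed over expected CpG of the promoter windows, with grey and pale blue dots for the first listed start of each coding gene without and with a peak over it, and large labelled dots for the 13 starts of the genes described here (1 of 17274 windows lies above the axis). Utf1 (0.62) and the first start of Sall1 (0.73) lie close to Tfcp2l1 (0.66) and above the median of uncovered starts (0.54), whereas both Nanog starts lie below 0.2.

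Short motifs were searched as exact matches on both strands of the same windows, and a match is only a match of letters. Sites that differ from a motif at any base were not counted, so absence here does not exclude a variant site. The GC box GGGCGG, a site of Sp and Klf factors, was present 4 times at Utf1, for example in gacgcagaGGGCGGtgcggggt at chr7:139943771-139943776 (match in capitals), and the 2 copies farthest from the start share a base. It was absent from the first Sall1 window, present 4 times in the second and 1 time in the innermost, and present at the first Pou5f1 start, at Zfp42 and at Lin28a. Of all windows 46.7% held it, and of those with a covered start 69.6%. The octamer ATGCAAAT, which POU factors bind, was present only at Zfp42 among the 13 windows, on the reverse strand at chr8:43307188-43307195 in gaagaggcATTTGCATaactgagc, against 1.68% of all windows. The half-site AGGTCA, which retinoic acid receptors and other nuclear receptors bind, was present at the first starts of Pou5f1 and Nanog and in 14.6% of all windows. At Pou5f1 it lay at chr17:35505999-35506004 in ggggccagAGGTCAaggctaga. The E-box CACGTG was in none of the 13 windows and in 7.91% of all.

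Other pluripotency genes had peaks at more of their members. Of 25 other naive pluripotency regulators, 12 (48.0%, interval 27.8% to 68.7%) had a peak at an end, against 11.7% of all coding genes. The highest scores were 3100 at Prdm14, Fgf4 and Klf2 and 2264 at Gbx2, and Dnmt3l, Dppa2, Dppa3 and Dppa4 were among those without a peak within 10 kb. Of 16 genes of the formative and primed states, into which naive cells pass as they leave the ground state, 11 (68.8%, 41.3% to 89.0%) had one. These were led by the epithelial factor Grhl2 (3190), Zic2, Foxd3 and Otx2 (3100 each, with widths of 15289, 12622 and 10032 bp). Cer1, Dnmt3a, Dnmt3b and Etv5 had none within 10 kb. On the naive list another 2 genes, Esrrb and Nr5a2, had interior peaks with none at an end, against 1.35% of all coding genes. The intervals of both lists overlap that of the 10 genes, so a difference between the lists is not resolved by these counts. These lists and those below were written with earlier results of these data known. Their shares and intervals are therefore descriptions and not tests against the 11.7%.

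Relatives of single members were looked at in the same way. Of the 13 POU factor genes other than Pou5f1, 8 (61.5%, 31.6% to 86.1%) had a peak at an end, against 11.7% of all coding genes. Pou4f3, Pou3f2, Pou3f1 and Pou3f3, factors of neurons and sensory cells, each scored 3100 with widths of 8694, 6741, 5365 and 4872 bp, whereas Pou1f1, Pou2f1, Pou3f4 and Pou6f1 had none within 10 kb. Of the 7 relatives of Tfcp2l1 and Zfp42, 1 (14.3%, 0.361% to 57.9%) had a peak at an end, Grhl2, a share near the background of 11.7%. Grhl1, Grhl3, Tfcp2 and Ubp1 were among those without a peak within 10 kb. Pou3f1 and Grhl2 are also on the list of formative and primed genes, so these lists are not separate sets.

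Genes of the Lin28 and let-7 pathway and NuRD subunit genes had peaks at shares near the background. In the Lin28 and let-7 pathway 2 of 13 genes (15.4%, 1.92% to 45.4%) had a peak at an end. They were Hmga2, a chromatin protein (score 684), and Igf2bp2, an mRNA-binding protein (477). The paralogue Lin28b had none within 10 kb, its nearest peak being 40291 bp away, and neither had Dgcr8, Dicer1, Dis3l2 or Drosha. Of 13 NuRD subunit genes 1 (7.69%, 0.195% to 36.0%) had a peak, Chd3, where a peak of score 293 lay 1685 bp outside the gene. Chd4, Gatad2a, Gatad2b and Hdac1 had none within 10 kb. The background is 11.7%, inside both intervals.

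**Figure D5:**
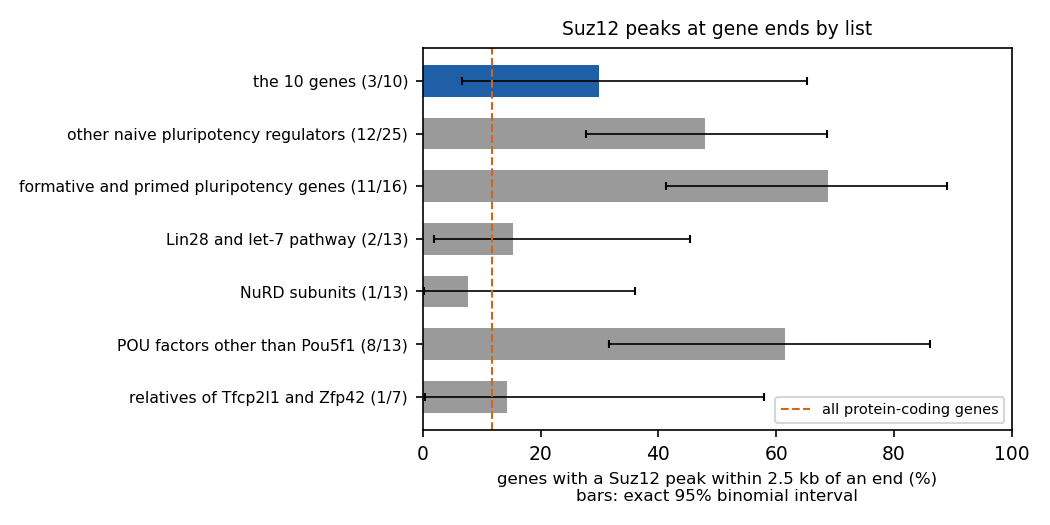
Percentage of genes with a Suz12 peak within 2.5 kb of an end, for the 10 genes (blue) and 6 related lists (grey), with exact 95% binomial intervals as error bars, counts in the labels and a dashed line at the share of all coding genes, 11.7%. The 10 genes stand at 30.0%, below the formative list at 68.8% and above the NuRD list at 7.69%, with wide intervals throughout. The lists were written with earlier results of these data known, so the intervals are not tests against the dashed line. Some lists share a gene (Pou3f1, Grhl2).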

How the data were processed

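Suz12-bound DNA was sequenced, and the deposited file for the wild-type library at 72 h is a list of 3373 peaks with a start, an end and a score. The score is the authors' value per peak and its scale is not stated. Bowtie, MACS and the build GRCm38 (mm10) are named per the submitters' processing notes; no source used here gives versions, parameters, the control or any pooling. The file holds no reads, so the depth is unknown and weaker binding may lie below the authors' threshold.

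Genes came from RefSeq (GRCm38.p6), taken from their outer ends without exons or untranslated regions, and starts and strands from its promoter table. A peak within 2.5 kb of either end was an end peak, and one inside a gene and farther from both ends an interior peak. All 10 members and all 87 places on the 6 other lists matched by symbol, 2 by an older name. Members, lists, motifs and naming rules (up to 4 top-scoring genes per list, ties by width, and up to 4 without a peak, alphabetically) were chosen with earlier results of these data known. Sox2 and Lin28b were named in addition to these. The calling step was checked on simulated peaks. Python 3.11.15, pandas 2.3.3 and scipy 1.17.1 were used. Alternatives were other windows, end distances, score minimums and gene sets.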

Additional observations from a re-analysis of the deposited data

How the results depend on the processing

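Of 18 alternative values, 15 stayed the same, 3 moved and 0 reversed, where a count stayed within 1.5 times the reported one and a share within its 95% interval. The number of the 10 genes with a peak stayed at 3 with windows of 2.5, 5 and 20 kb, with peaks that overlap the gene, with a score minimum of 300.6 (double the lowest) and with one at the median, 572. It was 5 with a window of 50 kb, by construction, since Pou5f1 and Nanog then count. With starts from the promoter table in place of gene ends it was 2, since Sall3 is not in that table. For genes of any kind the background was 10% within 10 kb in place of 15.9%, and 7% at an end in place of 11.7%. The background was not recomputed at the other windows, end distances and score minimums. Counts of the 10 genes under those settings therefore stand without a matching share of all coding genes. Counting 1 start per gene, an alternative added after seeing the data, left the share of covered starts at 8.02%. No replicate could be left out, since there is 1 library. No paired analysis was possible because the result comes from no test and only 1 library has a peak list here. Absence of a peak cannot be told from weak binding at unknown depth.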

Other observations

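RefSeq lists 7 pseudogenes named after Pou5f1, 2 after Nanog and 1 after Zfp42. None of these copies had a peak within 10 kb, against 10% of genes of any kind, so a count of 0 among so few is not a result about them, and the nearest peaks were 208 kb, 62.2 kb and 723 kb away for the closest copy of each. No source used here says whether reads shared between a gene and its copies were kept.

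Coding genes within 100 kb are given as counts, against 11.7% of all coding genes with a peak at an end, and they are too few to show a difference between loci. Of the 8 coding genes around Pou5f1, 3 had a peak at an end, namely H2-Q6, H2-Q7 and H2-Q10. Around Nanog it was 1 of 3 genes, Slc2a3, and around Utf1 1 of 6, Kndc1. Kndc1 ended 1846 bp before the Utf1 peak, which did not overlap it, and is counted through that peak. None of the 8 coding genes around Sall2 or the 5 around Lin28a had one. No coding gene lay within 100 kb of Sall1 or Zfp42.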
